A study of Saccharomyces cerevisiae with 23 samples.

Results

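The GAL genes are the budding yeast genes for the uptake and use of galactose and for the switch that controls them. The 7 described here were picked by systematic name, as 7 of the 6256 yeast genes with a probe on the array: the regulators GAL4 (YPL248C), GAL80 (YML051W) and GAL3 (YDR009W), the permease gene GAL2 (YLR081W), and the enzyme genes GAL1 (YBR020W), GAL7 (YBR018C) and GAL10 (YBR019C). Each had 1 probe, spotted 2 times on every array.

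Gal4 is a DNA-binding activator that sits upstream of the structural GAL genes. Gal80 binds Gal4 and masks its activating region, and Gal3, a relative of the galactokinase that senses galactose, relieves this inhibition when galactose and ATP are bound. Gal2 carries galactose across the plasma membrane, Gal1 phosphorylates it, Gal7 exchanges the galactose phosphate for the glucose phosphate of a UDP sugar, and Gal10 interconverts UDP-galactose and UDP-glucose. In glucose the structural genes are held down, in part by DNA-binding repressors such as Mig1 that bring the Tup1-Cyc8 corepressor to their promoters.

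The study asked how sumoylation of Tup1 and Cyc8 bears on transcription when yeast meets high osmolarity. RNA was compared on 2-color Agilent arrays between 4 strains that were unstressed (0 min) or had spent 30 or 60 min in 1.2 M sorbitol, at constant temperature and in yeast complete medium. Each of the 22 arrays in the fit set 1 sample against RNA of unstressed wild-type cells of its own replicate. A value is the log2 ratio of a sample over that reference. A further array set the unstressed wild types of the replicates against each other. All strains had the BY4741 background with its MET15, HIS3, URA3 and LEU2 deletions and made the SUMO protein Smt3 with a His-FLAG tag from its own locus, marked with HIS3MX6.

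In the wild type, TUP1 and CYC8 had each been deleted and put back as unmutated copies marked with URA3 and LEU2. Tup1K270R cells carried the substitution K270R in the reintroduced TUP1, and Cyc8-4KtoR cells carried K735R, K736R, K738R and K748R in the reintroduced CYC8. The double mutant carried both mutated copies. The array did not read these point mutations, so the labels of the mutant arrays were not checked by them. Each of the 11 strain and time groups other than the reference had 2 arrays, from cultures of separately built isolates called replicates A and B. Replicate A samples were labelled with Cy3 and replicate B samples with Cy5, so replicate and dye cannot be told apart. For the double mutant of replicate B, titles and source names exchanged the 30 and 60 min samples and disagreed on the dye at 0 min. The titles were followed.

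The stress was plain on every strain's arrays. GPD1, the glycerol phosphate dehydrogenase gene of the osmotic response, lay 3.91 to 5.43 log2 units above the unstressed level over the 4 strains and both times, and the small stress protein gene HSP12 5.04 to 7.29. Between 95% and 98.5% of yeast spots stood well above background in both channels, and 0 spots were saturated. On 10 of the 22 arrays the authors' software had removed a spatial trend from the Cy3 channel but not from Cy5. Whether the deposited ratio of a spot then followed its place on the array was not tested. For the 70 values of a GAL gene on those arrays, the 2 spots of a probe differed by a median of 0.62 log2 units, and by 0.14 in the intensities before that step. On the other 12 arrays the medians were 0.16 and 0.13. The deposited ratios are given first below. For the GAL genes, values before detrending stand beside the calls that changed with them, and for other genes only some are given.

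**Figure D1:**
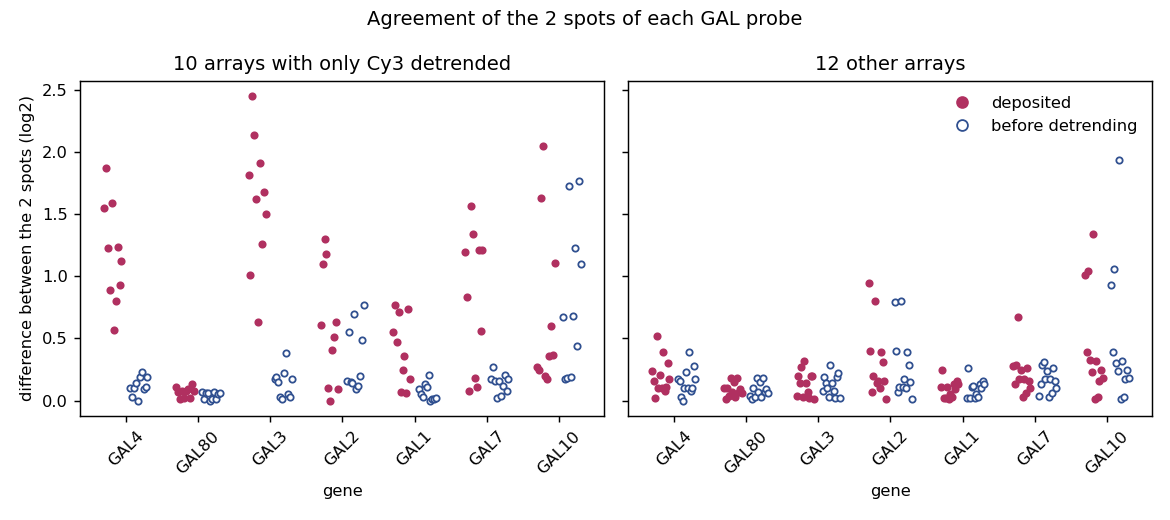
Difference in log2 ratio between the 2 spots of each GAL probe (vertical axis, log2 units; 1 point per gene and array), on the 10 arrays where only Cy3 was detrended and on the 12 other arrays, for deposited ratios and for ratios before detrending. On the 10 arrays the deposited values reach 2.45 log2 units and 26 of 70 exceed 1, against 4 of 70 before detrending.

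By the deposited ratios, wild-type cells at 30 min of sorbitol held about 10 times as much RNA of the permease gene GAL2 as unstressed cells. They held 3 to 4 times as much of the enzyme genes GAL7 and GAL10. GAL1, which lies beside GAL10, did not pass either criterion as deposited, nor did the 3 regulators. By 60 min GAL2 and GAL10 were still above the unstressed level while GAL7 had come back to it. The same 3 genes passed at 30 min in the 3 mutants, and 0 of the 63 mutant values of a GAL gene passed the cutoff or the limma threshold against the wild type at the same time.

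By counts, 3 of 7 GAL genes passed the study's cutoff of 0.65 log2 units, which is 1.57-fold, in the wild type at 30 min, where 33.8% of all 6201 tested probes did. The same 3 had a limma adjusted p under 0.05, as did 37.4% of all probes. At 60 min 2 of 7 passed each criterion, against 14.2% and 12.5% of all probes. In the mutants against their own unstressed cells at 30 min, 4 of 7 passed both criteria in Tup1K270R (36.8% and 22.8% of all probes), 3 of 7 in Cyc8-4KtoR (36.6% and 22.7%) and 3 of 7 in the double mutant (37.7% and 24.5%). With 7 genes these counts are near those of the array as a whole, so the results are those of the single genes and not of a group that moved together. The median log2 ratio of the 7 in the wild type at 30 min was -0.07, beside -0.06 over all probes.

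**Figure D2:**
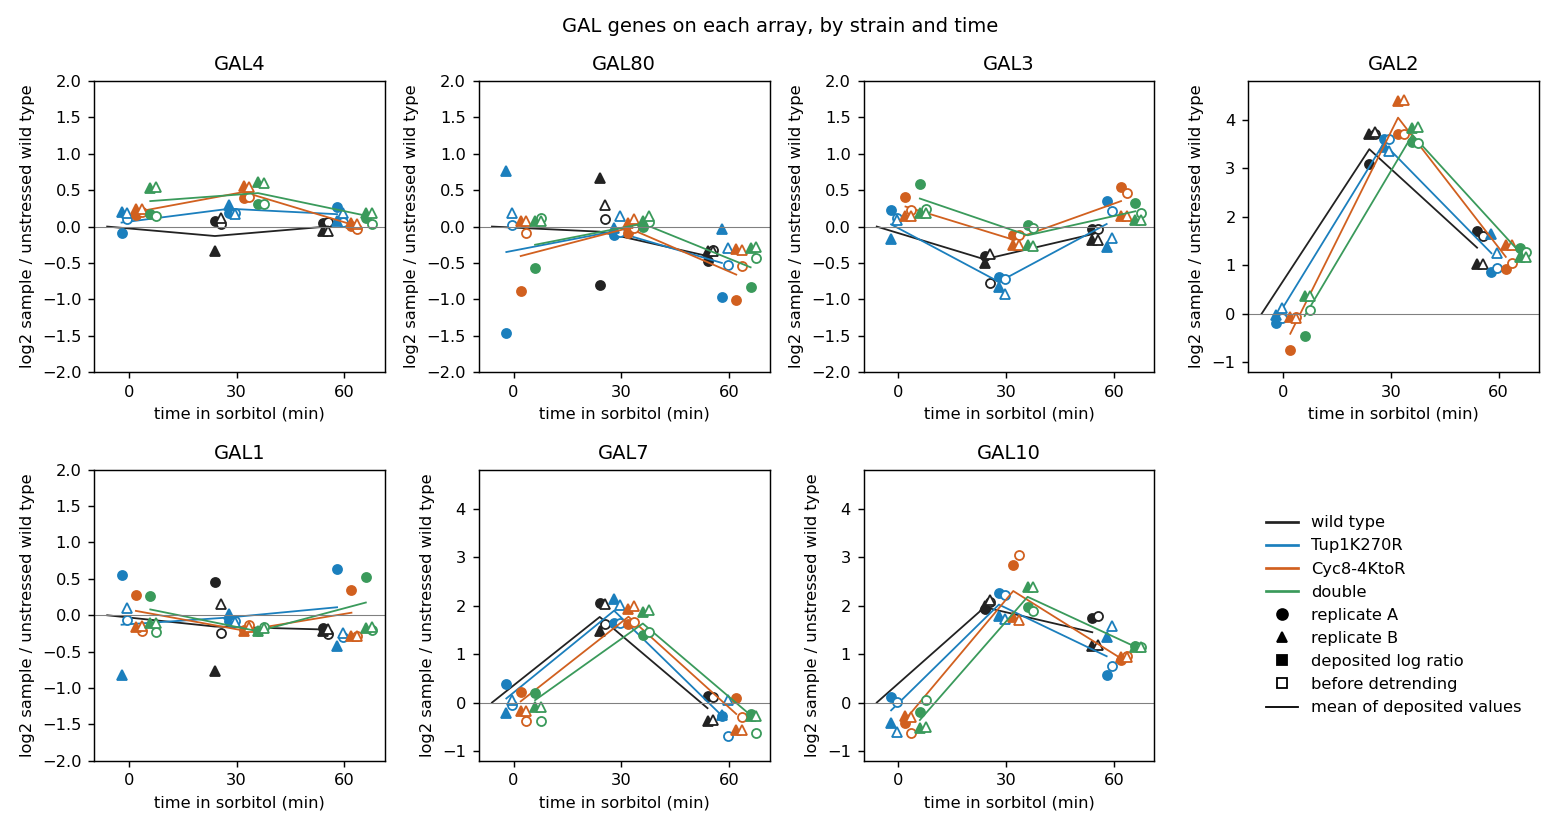
Log2 ratio of sample over unstressed wild-type reference (vertical axis, 2 ranges) for each GAL gene on each of the 22 arrays, by time in sorbitol (horizontal axis, min; points shifted sideways by strain), with filled points for deposited ratios, open points for ratios before detrending, circles for replicate A, triangles for replicate B and lines through the deposited means, the wild type starting at 0 as its own reference. GAL2 lies at 3.09 to 4.39 on all 8 arrays at 30 min and at 0.86 to 1.71 on all 8 at 60 min, as deposited, while every GAL1 and GAL4 value stays within 1 log2 unit of the reference.

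GAL2, the galactose permease gene, which belongs to the hexose transporter family, had the largest values of the 7. In the wild type its log2 ratio was 3.09 (replicate A) and 3.70 (replicate B) at 30 min, and 1.71 and 1.02 at 60 min. At 30 min it was 3.60 and 3.43 in Tup1K270R, 3.70 and 4.39 in Cyc8-4KtoR, and 3.54 and 3.84 in the double mutant. All 8 values at 30 min were above all 8 at 60 min, which were in turn above the 6 mutant values at 0 min, so the 3 times did not overlap in any strain. At 60 min the mutants gave 0.86 and 1.64 in Tup1K270R, 0.93 and 1.42 in Cyc8-4KtoR, and 1.35 and 1.17 in the double mutant. At 0 min the mutants lay between -0.75 and 0.36, on both sides of the wild-type reference.

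The wild-type mean at 30 min was 3.39 ± 0.43 (SD, n = 2) above unstressed cells, with a limma adjusted p of 4.4e-07. At 60 min it was 1.37 ± 0.48 (SD, n = 2), or 2.58-fold, with a limma adjusted p of 0.0029. GAL2 thus fell by 2.03 log2 units from 30 to 60 min (limma adjusted p = 0.0029). Against their own unstressed cells the mutants stood 3.62 (Tup1K270R), 4.45 (Cyc8-4KtoR) and 3.73 (double mutant) log2 units higher at 30 min, with limma adjusted p-values of 2.0e-05, 2.7e-06 and 1.0e-05. At 60 min the differences were 1.35, 1.58 and 1.31, with limma adjusted p-values of 0.037, 0.031 and 0.082. The double mutant passed at 60 min with the replicate as a paired term (0.022) and before detrending (1.00 log2 units, 0.0065). With normexp background correction (offset 50) on the median intensities the 60 min values were 0.46 (wild type), 0.43 (Tup1K270R), 0.50 (Cyc8-4KtoR) and 0.40 (double mutant), with limma adjusted p-values of 0.28, 0.55, 0.49 and 0.61, so the 60 min call was lost in all 4 strains.

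The order of the GAL2 group means at 30 min was Cyc8-4KtoR (4.04 ± 0.49), double mutant (3.69 ± 0.22), Tup1K270R (3.51 ± 0.12) and wild type (3.39 ± 0.43; SD, n = 2 each). No mutant in this order passed the test against the wild type. Before detrending the order was not kept, with the wild type at 3.73 ± 0.02 between Cyc8-4KtoR at 4.06 ± 0.50 and the double mutant at 3.69 ± 0.23. GAL2 was a dim probe in unstressed cells. Its background-subtracted intensity ran from 15.2 to 43.3 in the reference channel of the 22 arrays, well above background on all of them, and from 284 to 666 in the samples at 30 min.

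GAL7, the uridylyltransferase gene, was higher at 30 min and had returned by 60 min. In the wild type its log2 ratio was 2.05 and 1.48 at 30 min in replicates A and B, and 0.14 and -0.37 at 60 min. At 30 min the mutants gave 1.65 and 2.14 (Tup1K270R), 1.61 and 1.93 (Cyc8-4KtoR) and 1.39 and 1.87 (double mutant). Every array at 30 min exceeded every array at the other times, where GAL7 ranged from -0.22 to 0.39 at 0 min and from -0.57 to 0.14 at 60 min. The mean rise in the wild type was 1.77 ± 0.41 log2 units (SD, n = 2), or 3.40-fold, with a limma adjusted p of 2.6e-05. Against their own 0 min cells it rose by 1.81 in Tup1K270R, 1.74 in Cyc8-4KtoR and 1.58 in the double mutant, with limma adjusted p-values from 8.7e-04 to 0.0020. From 30 to 60 min it fell by 1.88 in the wild type (limma adjusted p = 0.0015), and by 2.17, 2.00 and 1.89 in Tup1K270R, Cyc8-4KtoR and the double mutant. At 60 min it stood at -0.35 to -0.11 against unstressed cells over the 4 strains, and 0 of 4 passed.

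GAL10, the epimerase gene, was raised at both times over a reference at or near background. The reference channel had a spot well above background on 9 of 22 arrays (2 of 11 in replicate A, 7 of 11 in replicate B), and the sample channel on all 8 arrays at 30 min, on all 8 at 60 min and on 1 of 2 arrays of each mutant at 0 min. The sizes of its ratios are therefore uncertain. Its wild-type log2 ratios were 1.93 and 2.00 at 30 min in replicates A and B, and 1.74 and 1.16 at 60 min. The mutants at 30 min gave 2.25 and 1.79 (Tup1K270R), 2.84 and 1.76 (Cyc8-4KtoR) and 1.97 and 2.39 (double mutant). At 60 min they gave 0.56 and 1.35, 0.88 and 0.94, and 1.16 and 1.14. The lowest array at 30 min, at 1.76, and the highest at 60 min, at 1.74, nearly met, while the 6 mutant arrays at 0 min lay from -0.53 to 0.11.

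The wild-type mean of GAL10 was 1.96 ± 0.06 at 30 min (SD, n = 2), or 3.90-fold, with a limma adjusted p of 2.9e-05. At 60 min it was 1.45 ± 0.41 (SD, n = 2), or 2.73-fold, with a limma adjusted p of 0.0011. The mutants stood 2.18 (Tup1K270R), 2.64 (Cyc8-4KtoR) and 2.54 (double mutant) above their own 0 min cells at 30 min, all passing. At 60 min the differences were 1.12, 1.25 and 1.51, with limma adjusted p-values of 0.062, 0.073 and 0.025, and with the replicate as a paired term the first 2 came to 0.035 and 0.040. Before detrending all 3 mutants passed at 60 min, with limma adjusted p-values of 0.013, 0.018 and 0.020.

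Unlike GAL2 and GAL7, the drop of GAL10 from 30 to 60 min passed as deposited in Cyc8-4KtoR alone. It was -1.39 log2 units there (limma adjusted p = 0.013), and -0.52 in the wild type, -1.06 in Tup1K270R and -1.03 in the double mutant, where limma adjusted p-values were 0.39, 0.052 and 0.054. With the replicate as a paired term it also passed in Tup1K270R (0.032) and the double mutant (0.034), and before detrending in the double mutant (-0.98; 0.047). Whether the drop differed between genes or strains was not tested. With normexp on the median intensities, a loess step included, the wild-type value at 30 min was 0.62 in place of 1.96, and the 30 min call was lost in Cyc8-4KtoR (0.33; limma adjusted p = 0.056) and the 60 min call in the wild type (0.24; 0.051) and the double mutant (0.21; 0.30).

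**Figure D3:**
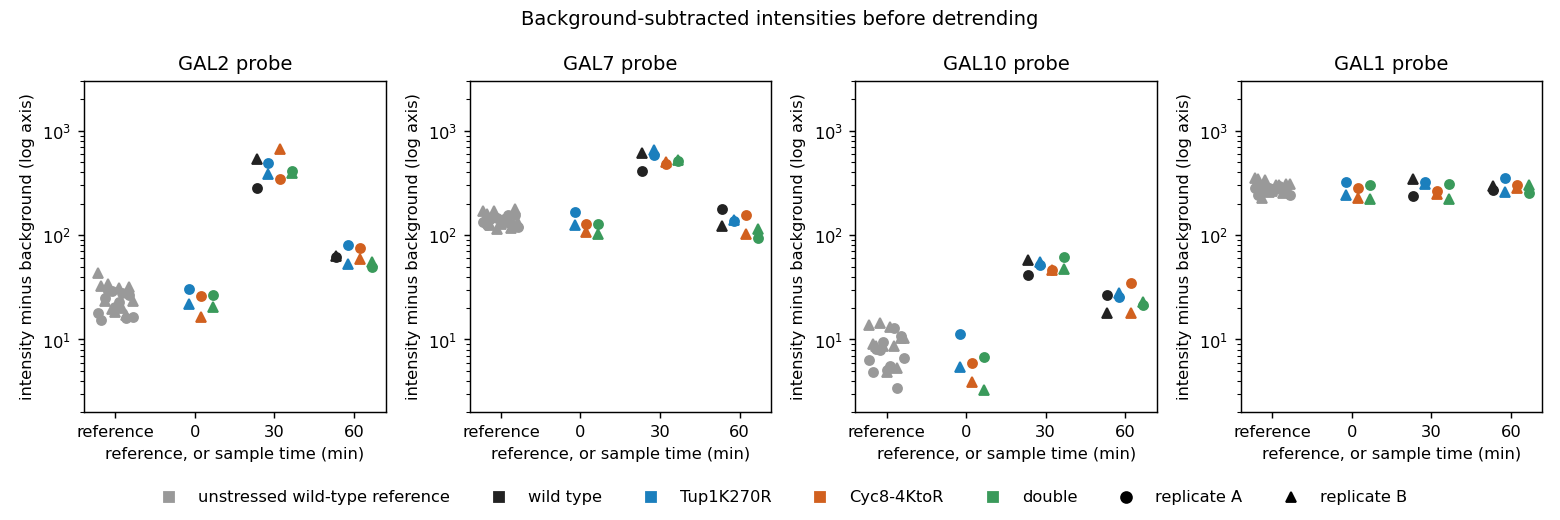
Background-subtracted intensity before detrending (vertical axis, log scale) of the GAL2, GAL7, GAL10 and GAL1 probes in the reference channel of all 22 arrays and in the samples by time (horizontal axis, min), with points shifted sideways by strain. Samples at 30 min read 284 to 666 for GAL2, 414 to 661 for GAL7 and 41.9 to 61.8 for GAL10, above every reference value of the same probe, whereas GAL1 samples overlap their reference range of 228 to 356 at every time.

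In the 60 min against 30 min comparison as a whole, 2 of 7 GAL genes had a limma adjusted p under 0.05 in the wild type (13.5% of all probes), 3 in Tup1K270R (16.4%), 3 in Cyc8-4KtoR (18.4%) and 2 in the double mutant (19.4%). GAL2 and GAL7 were among them in all 4 strains. Against unstressed cells at 60 min, GAL2 and GAL10 passed the 0.65 cutoff in each mutant, which 24.7% of all probes did in Tup1K270R, 13.1% in Cyc8-4KtoR and 12.9% in the double mutant. By limma 1 gene passed in each, GAL2 in Tup1K270R and Cyc8-4KtoR and GAL10 in the double mutant, against 9.5%, 3.6% and 3.47% of all probes.

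GAL1, the galactokinase gene, was not called at any time in any strain as deposited. In the wild type its log2 ratio was 0.46 and -0.77 at 30 min in replicates A and B, and -0.18 and -0.21 at 60 min. The 30 min arrays of opposite sign were both arrays with only Cy3 detrended, and before detrending they read -0.24 and 0.15. Over all 22 arrays GAL1 lay between -0.82 and 0.64 as deposited and between -0.30 and 0.15 before detrending, so the deposited values spread more widely. The wild-type mean at 30 min was -0.15, with a 95% interval of -0.87 to 0.56 that excludes a rise of the size of GAL7 or GAL10. Before detrending, the intervals of all 4 strains at 30 min lay within -0.33 and 0.27. At 60 min the wild type read -0.23 before detrending, with a limma adjusted p of 0.025.

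GAL7, GAL10 and GAL1 lie next to each other on chromosome II, in that order in the RefSeq annotation (R64), between KAP104 and FUR4. KAP104, a nuclear import receptor gene, read 0.07 in the wild type at 30 min and 0.37 at 60 min. It was not called in any strain as deposited. Before detrending KAP104 was called in 2 of 4 strains at 30 min (0.13 to 0.30) and in all 4 at 60 min (0.30 to 0.45). FUR4, the uracil permease gene on the other side of GAL1, rose by 1.68 log2 units at 30 min (1.86 and 1.50; limma adjusted p = 1.4e-05) and read 0.31 at 60 min. GAL1 thus stood at the unstressed level between neighbours on both sides that were higher. FUR4 was called at 30 min in all 4 strains, at 1.34 to 2.06. An annotated noncoding RNA, YNCB0008W, overlaps GAL10 and GAL1, and whether their probes also read it was not tested.

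**Figure D4:**
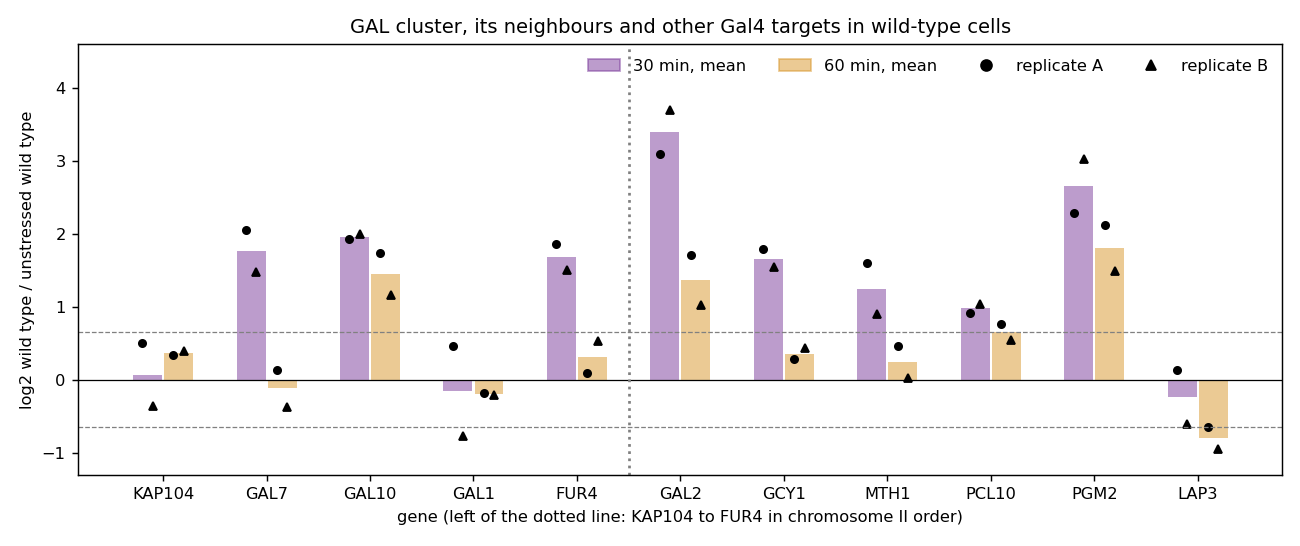
Deposited log2 ratio in wild-type cells over unstressed wild type (vertical axis) for GAL7, GAL10, GAL1 and their neighbours in chromosomal order (left of the dotted line, not to scale) and for GAL2 and the other Gal4 targets, with bars for the mean of 2 replicates at 30 and 60 min, circles for replicate A, triangles for replicate B and dashed lines at the 0.65 cutoff in either direction. GAL7, GAL10 and FUR4 lie between 1.48 and 2.05 at 30 min, GAL1 lies at 0.46 and -0.77, and KAP104 at 0.50 and -0.36.

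Of the regulators, GAL3, the galactose sensor gene, was the one below the reference on 7 of 8 arrays at 30 min as deposited. Its wild-type log2 ratios were -0.40 and -0.50 at 30 min and -0.03 and -0.18 at 60 min. At 30 min Tup1K270R gave -0.69 and -0.83, below both wild-type arrays as deposited. Cyc8-4KtoR gave -0.11 and -0.25 and the double mutant 0.02 and -0.26, both above them. The 2 spots on these wild-type arrays, both with only Cy3 detrended, differed by 1.82 and 1.01 log2 units as deposited. Before detrending the wild type read -0.77 and -0.38 and Tup1K270R -0.72 and -0.93, so these strains overlapped. Cyc8-4KtoR and the double mutant stayed above both wild-type arrays by that route. Against its own 0 min cells each mutant was lower on both arrays, with differences of -0.91 to -0.39.

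Only the Tup1K270R difference of -0.79 at 30 min passed as deposited (limma adjusted p = 0.031). The wild type at -0.45 had a limma adjusted p of 0.054, Cyc8-4KtoR at -0.46 one of 0.21, and the double mutant at -0.50 one of 0.16. The standard error was 0.17 in the wild type, set against its reference, and 0.24 in the mutants, set against their own 0 min arrays. These p-values therefore do not rank the strains. With the replicate as a paired term all 4 passed, with limma adjusted p-values of 0.0017 (Tup1K270R), 0.0044 (wild type), 0.039 (Cyc8-4KtoR) and 0.023 (double mutant). Before detrending 3 of 4 passed, all but the double mutant at -0.36 (0.059). At 60 min GAL3 was at -0.17 to 0.07 and 0 of 4 passed. It came up by 0.79 from 30 to 60 min in Tup1K270R (limma adjusted p = 0.039), and before detrending also by 0.47 in the wild type (limma adjusted p = 0.020) and 0.49 in Cyc8-4KtoR (0.015). GAL3 and GAL1 are paralogs, and cross-hybridisation between them was not tested.

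GAL80, the inhibitor gene, gave different readings by the 2 routes. As deposited, the wild type read -0.81 and 0.67 at 30 min in replicates A and B, and -0.47 and -0.34 at 60 min. Before detrending these became 0.11 and 0.30, and -0.32 and -0.34. The 22 deposited values ran from -1.46 to 0.76 and those before detrending from -0.54 to 0.30, although the 2 spots of the probe never differed by more than 0.18. At 60 min all 8 arrays were below 0 by either route, and before detrending all 8, at -0.54 to -0.28, were below every array of 0 and 30 min.

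As deposited GAL80 was called in 0 of 4 strains at 60 min and in 0 of 4 between 30 and 60 min, at -0.40 to -0.15 against unstressed cells. Before detrending it was called in all 4, at -0.33 in the wild type (limma adjusted p = 0.0061), -0.52 in Tup1K270R (0.0061), -0.42 in Cyc8-4KtoR (0.021) and -0.45 in the double mutant (0.015). From 30 to 60 min before detrending it was likewise called in all 4, at -0.53 in the wild type (limma adjusted p = 0.0022), -0.45 in Tup1K270R (0.0066), -0.48 in Cyc8-4KtoR (0.0042) and -0.46 in the double mutant (0.0051). These differences are under the 0.65 cutoff. At 30 min the wild type was slightly above its reference before detrending, at 0.20 with a 95% interval of 0.02 to 0.39 (limma adjusted p = 0.047), and at -0.07 as deposited, where the interval ran from -1.0 to 0.86.

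GAL4, the activator gene, was not called in any comparison of deposited values. In the wild type it read 0.08 and -0.34 at 30 min and 0.05 and -0.06 at 60 min. The mutants at 30 min gave 0.19 and 0.30 (Tup1K270R), 0.39 and 0.56 (Cyc8-4KtoR) and 0.31 and 0.61 (double mutant). All 6 of these were above both wild-type arrays. Against their own 0 min cells the differences of the 4 strains at 30 min were -0.13 to 0.27. Before detrending GAL4 fell from 30 to 60 min in Cyc8-4KtoR by 0.47 (limma adjusted p = 0.0065) and in the double mutant by 0.35 (0.032).

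The comparisons of each mutant with the wild type asked whether the changed lysines of Tup1 and Cyc8 altered GAL gene RNA before or during the stress. In none of the 9 did a GAL gene pass the 0.65 cutoff or a limma adjusted p of 0.05, so 0 of 7 were called in each. At 0 min the cutoff was passed by 2.24% of all probes in Tup1K270R, 1.87% in Cyc8-4KtoR and 2.97% in the double mutant. At 30 min it was passed by 2.03%, 2.61% and 2.98%, and at 60 min by 1%, 2.58% and 4.26%. By limma 0% of all probes passed in each of the 9. At an unadjusted p under 0.05, 4 of the 63 GAL values passed, and the lowest limma adjusted p was 0.88. With the replicate as a paired term 6 passed unadjusted and 0 adjusted, and before detrending 9 and 0. The share of all probes at an unadjusted p is not given here. The 63 values share arrays and references, so no result is read from the unadjusted counts.

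The largest of the 63 was GAL2 in Cyc8-4KtoR at 30 min, at 0.61 and 0.69 above the wild type of the same replicate. Its mean of 0.65, just under the cutoff before rounding, had a 95% interval of -0.15 to 1.45, and it was 0.33 before detrending. GAL4 stood 0.60 higher than wild type in Cyc8-4KtoR at 30 min (0.30 and 0.90; interval 0.17 to 1.03; limma adjusted p = 1.0) and 0.59 higher in the double mutant (0.22 and 0.96; interval 0.16 to 1.02). Before detrending these were 0.39 and 0.37. In the unstressed double mutant GAL4 was 0.35 higher (0.17 and 0.53; limma adjusted p = 0.88), and 0.34 before detrending, where the paired fit gave a limma adjusted p of 0.011, the 1 call among the 63 in any of these 4 fits. The dye of that mutant's replicate B array was the one in dispute, and with its sign turned the deposited difference was -0.18 (limma adjusted p = 0.95).

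On the lower side, GAL10 at 60 min read -0.54 against wild type in Cyc8-4KtoR (-0.86 and -0.22; interval -1.29 to 0.21) and -0.49 in Tup1K270R (-1.18 and 0.19; interval -1.24 to 0.26). The structural genes in unstressed mutants lay between -0.41 and 0.08 of the wild type, the lowest being GAL2 in Cyc8-4KtoR at -0.41 (-0.75 and -0.07; interval -0.98 to 0.16; -0.08 before detrending). The half-widths of the 63 intervals, which are not adjusted for the number of probes, ran from 0.30 to 1.31 log2 units, and from 0.16 to 0.84 before detrending. Differences smaller than these were not detectable with 2 arrays a group. A larger one could also fail after adjustment over all probes. GAL4 in Cyc8-4KtoR at 30 min, at 0.60 with an interval of 0.17 to 1.03, was not called. The half-widths are therefore not the limit of detection for a call. The change of response itself, mutant minus wild type from 0 min to 30 or 60 min, passed for 0 of 42 values by limma, and 1 passed unadjusted. The 0.65 cutoff was passed by 2 of 42 as deposited, GAL2 at 1.06 and GAL10 at 0.68, both in Cyc8-4KtoR at 30 min. The share of all probes in these contrasts is not given here, so these are values of 2 single genes. Before detrending GAL2 read 0.40 there (interval -0.20 to 1.01) and GAL10 0.73 (interval -0.29 to 1.76), and with normexp they read -0.57 and -0.28.

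**Figure D5:**
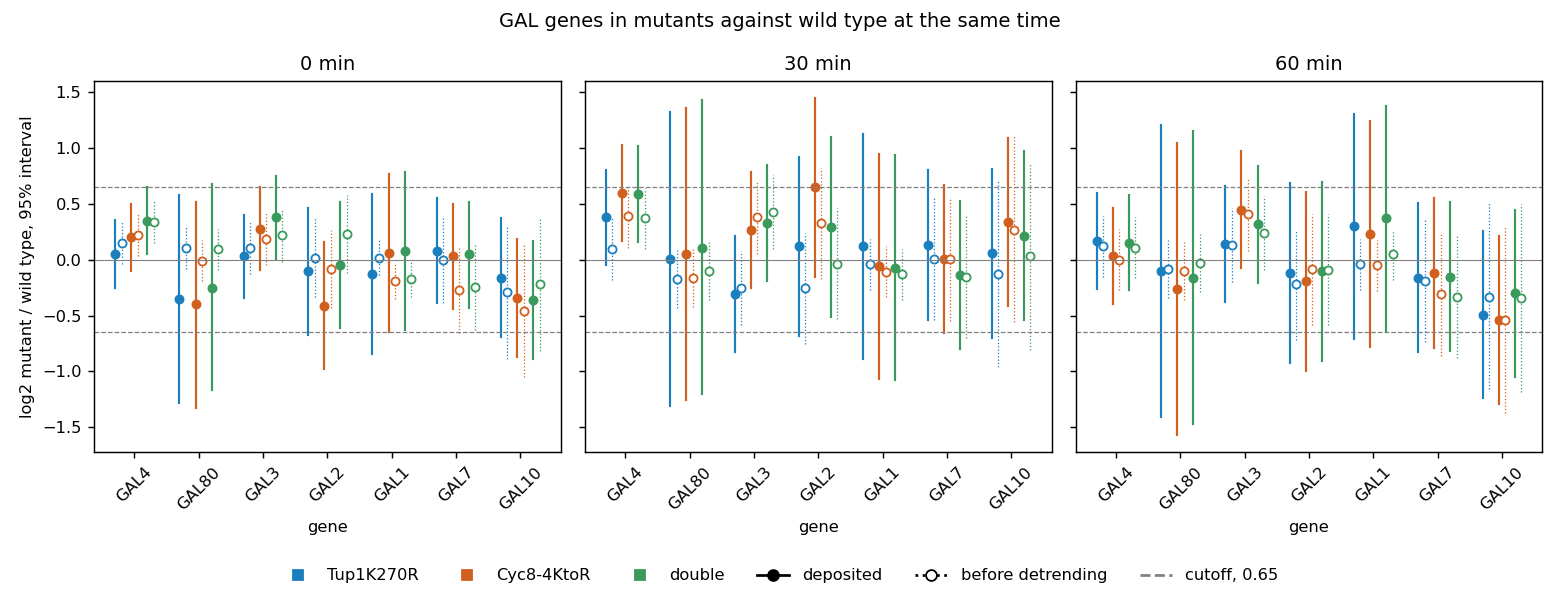
Log2 difference between each mutant and wild type at the same time (vertical axis) for the 7 GAL genes, as deposited and before detrending, with points for the mean of 2 replicates bars for the 95% interval from limma and dashed lines at the 0.65 cutoff. All points lie between -0.54 and 0.65, and no gene passed the limma threshold.

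Exchanging the 30 and 60 min arrays of replicate B of the double mutant, as their source names had it, bears directly on these genes. By the titles GAL2 read 3.84 at 30 min and 1.17 at 60 min in replicate B, beside 3.54 and 1.35 in replicate A. With the exchange, 2 of 7 GAL genes passed the cutoff between double mutant and wild type at 30 min and 2 at 60 min, and the limma calls at 30 min against its own 0 min went from 3 to 1.

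Other genes that Gal4 is known to bind upstream of were looked at as a list of 6. In the wild type at 30 min 5 of 6 passed both criteria, all higher, where 33.8% of all probes passed the cutoff and 37.4% the limma threshold in either direction, and the median of the 6 was 1.46 beside -0.06 over all probes. These were PGM2 (2.66), the phosphoglucomutase gene whose product converts glucose 1-phosphate from the galactose pathway, FUR4 (1.68), the aldo-keto reductase gene GCY1 (1.66), MTH1 (1.25), a repressor of hexose transporter genes, and the Pho85 cyclin gene PCL10 (0.98). LAP3, a cysteine protease gene also called GAL6, read -0.23 and was called in 0 of 4 strains. Before detrending it was called lower in all 4, at -0.38 to -0.27. Across the 4 strains at 30 min PGM2 ranged from 2.50 to 3.78, GCY1 from 1.32 to 1.66 and PCL10 from 0.69 to 0.98, called in all 4, while MTH1, at 0.86 to 1.44, was called in 1 of 4 and before detrending in 4. At 60 min PGM2 (1.80; limma adjusted p = 0.0026) and PCL10 (0.65; 0.0016) stayed higher in the wild type and LAP3 fell by 0.80 (0.011), with a list median of 0.33. GCY1 and MTH1 were at 0.36 and 0.24. PCL10 and LAP3 were each called at 60 min in 1 of 4 strains as deposited. Before detrending both were called in all 4, PCL10 at 0.46 to 0.75 and LAP3 at -0.87 to -0.64.

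PGM2, its paralog PGM1 and UGP1, the UDP-glucose pyrophosphorylase gene, encode enzymes of glucose phosphates and UDP-glucose that act next to the galactose pathway. UGP1 rose by 1.12 at 30 min (limma adjusted p = 0.0020) and 1.66 at 60 min (2.6e-04), and was called in all 4 strains at both times. PGM1 read 0.22 at 30 min and fell by 0.85 at 60 min (0.0025), where it was called in all 4 strains.

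Among 15 regulators of glucose repression, NRG1 and MIG2, both repressors of glucose-repressed genes, passed both criteria in the wild type at 30 min, where 33.8% of all probes passed the cutoff and 37.4% the limma threshold. NRG1 rose by 2.75 (3.09 and 2.41; limma adjusted p = 2.4e-04) and MIG2 fell by 1.47 (limma adjusted p = 1.8e-05), and both were called in all 4 strains. TUP1 at -0.94 and CYC8 at -0.78 were past the cutoff without a call, and before detrending they read -0.40 and -0.37. MIG1 was at -0.22 to 0.47 over the 4 strains and not called as deposited. Before detrending MIG1 was called in 3 of 4 strains at 30 min, where the 4 ranged from -0.43 to 0.38. At 60 min it was called by that route in 2 of 4, at -0.44 to -0.29 over the 4. At 60 min 1 of 15 was past the cutoff, against 14.2% of all probes, and 0 of 15 had a limma adjusted p under 0.05, against 12.5%. It was NRG1 at 0.96, with a limma adjusted p of 0.20. Before detrending 2 of the 15 rose and 4 fell by limma at 30 min, and 3 rose and 3 fell at 60 min. No share of all probes is given for that route.

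Against the wild type, 0 of the genes in these lists had a limma adjusted p under 0.05 in any mutant as deposited, and 0% of all probes did. The 0.65 cutoff was passed by between 1% (Tup1K270R, 60 min) and 4.26% (double mutant, 60 min) of all probes. In the double mutant at 0 min MIG2 (0.79), MIG3 (0.68) and NRG1 (1.00) passed the cutoff, and MIG2 had a limma adjusted p of 0.0025 before detrending. MIG2 was also called before detrending in Cyc8-4KtoR at 0 min (0.57; limma adjusted p = 0.043). NRG1 was also past it in Cyc8-4KtoR (0.84) and, in the other direction, in Tup1K270R (-0.66) at 0 min. At 30 min MTH1 (0.69) and UGP1 (0.80) passed it in Cyc8-4KtoR and MIG2 (0.81) and UGP1 (0.75) in the double mutant, and at 60 min NRG2, a repressor gene akin to NRG1, in the double mutant (-0.77). Of the reintroduced genes, TUP1 was past it in Tup1K270R at 0, 30 and 60 min (0.67, 1.42 and 0.79) and at 30 min in Cyc8-4KtoR (1.04) and the double mutant (0.67). CYC8 was past it in Cyc8-4KtoR at 30 and 60 min (1.55 and 0.74) and in the double mutant (1.47 and 0.73). Of the 2 stress genes, at 0 min GPD1 was past it in Tup1K270R (-0.71), and HSP12 in Tup1K270R (-1.06), Cyc8-4KtoR (1.31) and the double mutant (1.31).

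The GAL genes shared their pattern across arrays only in part. Over the 22 arrays, which share their references, GAL2 correlated with GAL10 at r = 0.92 and with GAL7 at 0.82, and GAL7 with GAL10 at 0.69, whereas GAL1 stood at -0.29, -0.07 and -0.19 with GAL2, GAL7 and GAL10. GAL3 ran opposite to GAL2 at -0.72. GAL1 and GAL80 gave -0.91 as deposited and 0.68 before detrending, the widest gap between the 2 routes among all pairs of the 7. The 5 other probes whose pattern was most like the mean of GAL1, GAL7 and GAL10 over the 22 arrays were HMX1 (r = 0.975), a heme oxygenase gene, GID11 (0.969), IGD1 (0.969), MET1 (0.967), a gene of siroheme synthesis, and EMI2 (0.965). Before detrending their r was 0.943 to 0.968, and GAL2 stood at 0.893 as deposited and 0.966 before. These coefficients describe 22 arrays of 3 times and carry no test.

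Wild type set against wild type, replicate B over replicate A at 0 min on 1 further array, gave the GAL genes log2 ratios of -0.20 to 0.05 as deposited. Neither channel of that array was detrended, so this range does not cover the 10 arrays with only Cy3 detrended. GAL10, near background in both channels there, read -0.13 as deposited and -1.01 before detrending.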

How the data were processed

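The authors hybridised labelled RNA to 2-color Agilent yeast 8x15K arrays and extracted them with Feature Extraction 10.5.1.1. The deposited log10 ratios (red over green, after the authors' background subtraction, partial detrending and dye normalization) were turned to log2 of sample over reference, with the mean taken over both spots of each probe. The authors' own log2 values in the series table differed from these by at most 0.0005. The deposited background-subtracted intensities, from before detrending, and the median intensities with normexp (offset 50) were loess-normalized as alternatives. As in the study, 51 probes from YDR211W to YDR261C were left out, leaving 6201 of 6256 (6129 before detrending). The paper removed these genes because the Tup1K270R strain of replicate A showed raised expression throughout the region, which it took as aneuploidy. GAL3 (YDR009W) lies outside this range on the same chromosome.

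All 22 arrays were fitted by group in limma 3.58.1 (R 4.3.3; 11 residual degrees of freedom), with Benjamini-Hochberg adjustment over all probes and a threshold of 0.05. Wild type at 0 min was the common reference, so tests against it leave out the control's own spread. A mutant's response carries the spread of its own 0 min arrays too. An equal change therefore gets a larger p-value in a mutant than in the wild type. The shared reference cultures and dyes pair the replicates: deviations of same-lettered arrays correlated at -0.0797 to 0.838, over 0.1 in 52 of 55 pairs of groups. The 60 min against 30 min and response-difference contrasts and the paired fits before detrending were added after the data were seen. The fitting script was tested on simulated data with known changes. The number of arrays limits the precision. The study's cutoff of 0.65 log2 units was applied to group means. All 7 genes were named, and from the lists those past 0.65 in the wild type or against it. Members and lists were chosen with earlier results of these data known. All 33 listed names matched RefSeq.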

Additional observations from a re-analysis of the deposited data

How the results depend on the processing

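Of the single-gene values, 1128 kept their direction and side of the threshold under the alternatives, 114 moved, 50 gained a call, 27 lost one and 5 reversed. GAL80 in the wild type at 30 min went from -0.07 to 0.20 before detrending, with or without the replicate block, and to 0.24 with normexp, again with or without it. GAL1 in Tup1K270R at 60 min against its own 0 min went from 0.24 to -0.28 before detrending with the replicate block.

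Counts of GAL genes moved as follows, and other counts, 321 in all, stayed within 1.5 times. The shares of all probes given earlier are those of the deposited ratios. No share under an alternative is given here, so these changes in count cannot be set against the whole array. Keeping only probes well above background everywhere dropped GAL2 and GAL10, and the wild-type count at 30 min went from 3 to 1 by either criterion, Tup1K270R from 4 to 2, the other mutants from 3 to 1, and every 60 min count against 0 min to 0. With normexp, with or without the replicate block, the 60 min cutoff counts went from 2 to 0 in all 4 strains, the Tup1K270R cutoff count at 30 min from 4 to 2 and the wild-type limma count at 30 min from 3 to 5. The 60 min limma counts stayed but the genes were exchanged: GAL2 lost its call in the wild type (0.28), Tup1K270R (0.55) and Cyc8-4KtoR (0.49) and GAL10 in the wild type (0.051) and the double mutant (0.30), while GAL80 gained one in all 4 strains and GAL1 in the wild type. Before detrending, with or without the block, limma counts went from 3 to 5 (wild type, 30 min), from 2 to 4 (wild type, 60 min) and from 1 to 3 in each mutant at 60 min (4 in Tup1K270R with the block). With the block, Cyc8-4KtoR at 30 min also went from 3 to 5 and the double mutant against wild type at 0 min from 0 to 1. The replicate block on the deposited ratios raised the limma count at 60 min from 1 to 2 in each mutant, and the slide as a random block did so in Tup1K270R and Cyc8-4KtoR. With the 30 and 60 min arrays of the double mutant exchanged, its limma count at 30 min went from 3 to 1 and its cutoff counts against wild type from 0 to 2 at 30 and at 60 min. With the sign of the double mutant's replicate B 0 min array turned, GAL2 at 60 min gained a call (1.67; 0.014), GAL10 lost its own (0.98; 0.20) and GAL4 against wild type at 0 min went from 0.35 to -0.18. The cause was not tested.

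Leaving out replicate A or B leaves each group with 1 array that is assumed to vary like the rest of the fit. The cutoff count was then 4 to 5 in the wild type at 30 min (5 without replicate A), and the limma count 0 to 2 in the wild type at 60 min (0 without replicate A), 0 to 1 in Tup1K270R at 60 min (0 without replicate B), and 0 to 0 in Cyc8-4KtoR and in the double mutant at 60 min. Cutoff counts against wild type, 0 with both replicates, became 1 to 2 (Tup1K270R) and 0 to 2 (Cyc8-4KtoR) at 0 min, 1 to 3 (Tup1K270R), 2 to 3 (Cyc8-4KtoR) and 1 to 3 (double mutant) at 30 min, and 0 to 3, 0 to 2 and 0 to 1 at 60 min, with limma counts of 0 throughout.

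The 2 arrays a group, the dim GAL10 reference and the detrended Cy3 channel limit what these values can show. Series table values gave the same counts as the deposited ratios.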
